A study of Mus musculus with 2 samples.

Results

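The core machinery that makes and uses small RNAs was examined in the second polar body (PB2) and in the zygote through 10 genes: Dicer1, Ago1, Ago2, Ago3, Ago4, Drosha, Dgcr8, Tarbp2, Prkra and Tnrc6a. They were taken by their symbols, and all 10 were present among the 11262 genes of the table. Both libraries came from untreated mouse embryos of the strain labelled C57BL/6 (C57BL/6N in the study's methods). By those methods, the females were superovulated with gonadotropin injections before mating. The embryos were collected from the oviduct, freed of granule cells with hyaluronidase and cultured to the late one-cell stage. The zona pellucida was removed with acid, PB2 was split from the embryo by trypsin and pipetting, and poly(A) RNA of pooled PB2s or pooled zygotes was amplified as full-length cDNA. There was 1 library of PB2 and 1 of zygotes, so no spread between samples could be measured, no test was run, and each difference describes these libraries only. In such bulk samples, fewer cells of a kind and less RNA per cell cannot be told apart.

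In animals, the nuclear Microprocessor, made of the RNase III enzyme Drosha and its RNA-binding partner Dgcr8, cuts microRNA (miRNA) hairpins out of primary transcripts. The cytoplasmic RNase III enzyme Dicer, helped by the double-stranded RNA-binding proteins Tarbp2 and Prkra, trims the hairpins to short duplexes, and one strand is loaded into an Argonaute protein. Argonaute then recruits a GW182 protein such as Tnrc6a, which brings in the deadenylases that shorten the target mRNA. In mouse oocytes Dicer also makes endogenous small interfering RNAs from long double-stranded RNA, and an oocyte form of Dicer that starts from a retrotransposon within the gene is known for this. Ago2 is the Argonaute best known for cutting a paired target. The libraries measured poly(A) RNA, so they show the transcripts of this machinery and not the small RNAs themselves.

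Values are TPM, transcript abundance adjusted for length and for the total of its library, as the authors deposited them to 1 decimal. Over the 11262 genes they summed to 89.83% of a full library in PB2 and 92.71% in the zygote. Part of each library is thus absent, and all genes here means those of the table. The log2 ratio is log2((PB2 TPM + 1)/(zygote TPM + 1)) and was read for genes with at least 1 TPM in either library, 10645 genes in all. Their median log2 ratio was 0.21, above 0. Of the 10 machinery genes, 8 reached 1 TPM in a library, Dgcr8 only in the zygote, while Ago1 and Ago4 stayed under it in both. By this log2 ratio, none of the 8 was at least 2-fold apart in either direction. Over all genes compared, 18.9% passed that threshold towards PB2 and 8.09% towards the zygote. Of all genes compared, 73.04% lay within 2-fold, so most genes share this property. For Prkra it depends on the 1 TPM added to each value, since its deposited values had a ratio of 2.18. The log2 ratios of the 8 genes ran from -0.53 for Dicer1 to 0.80 for Prkra, with 4 above 0 and 4 below, and their median was -0.05.

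The depth behind these values is unknown, since TPM keeps no count of reads. The 13 markers of oocyte and early embryo fixed for this work were all present, from 99.5 TPM upwards in PB2 and from 90.9 TPM in the zygote. Of 15 markers of cumulus and granulosa cells, 5 were in the table, with a summed level of 84.8 TPM in PB2 and 81.7 in the zygote, mostly Cyp19a1, and Cyp11a1 was listed at 0 in the zygote. Of 10 sperm markers, 3 were in the table, summing to 40.5 and 30.3 TPM. The part of these markers in the results was not tested.

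**Figure D1:**
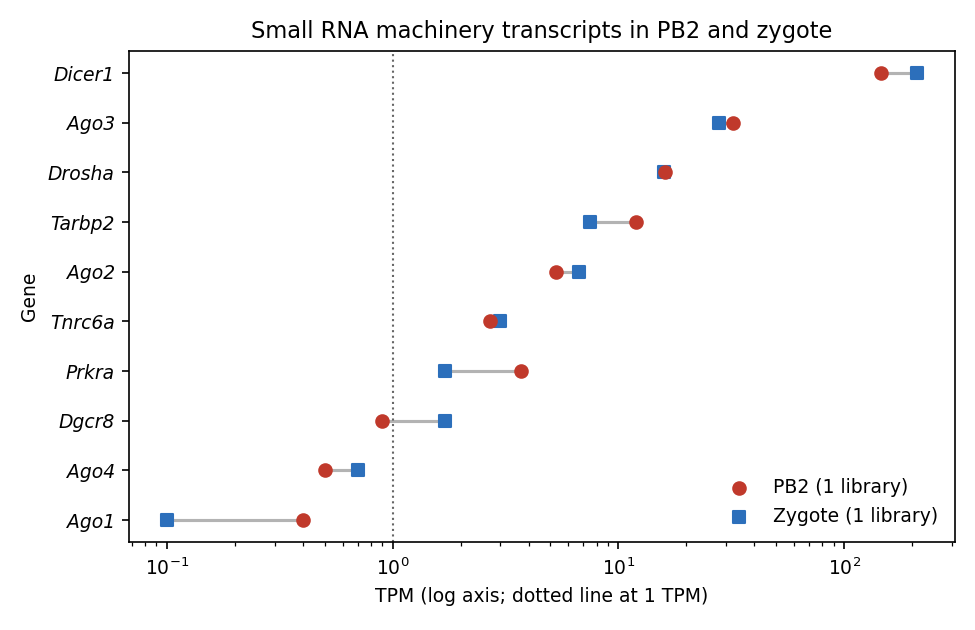
TPM of the 10 machinery genes on a log axis, ordered by mean level, with a circle for the PB2 library and a square for the zygote library. Dicer1 stands far to the right of the rest, at 145.5 TPM in PB2 and 210.3 in the zygote, and Ago1 and Ago4 lie left of the dotted line at 1 TPM in both.

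Dicer1 (ENSMUSG00000041415), the enzyme that makes the final duplex, was by far the most abundant transcript of the machinery. It had 145.5 TPM in PB2 and 210.3 in the zygote. This zygote level was 1.45 times the PB2 value, a log2 ratio of -0.53, and the rounding of the deposited values hardly moves this ratio (1.445 to 1.446). Among all genes of the table, 5.6% exceeded the level of Dicer1 in the zygote and 8.88% in PB2. Dicer1 lay in the lower part of the comparison as well, with 19.7% of all genes compared having a lower log2 ratio. Relative to the median of all genes its log2 ratio was -0.74. Dicer1 is annotated at chr12:104687742-104751952 (minus strand, GRCm38, GENCODE M21), with 27 exons in its longest coding transcript of 9851 nucleotides. The table gives a single value for the gene, so the oocyte form and the full-length form were not separated here.

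With the settings of the report, the proteins that bind double-stranded RNA beside Dicer stood on the other side of the comparison. For Tarbp2 this did not hold once the trend on GC content was removed, as given below. Tarbp2 had 11.9 TPM in PB2 and 7.5 in the zygote, a ratio of 1.59 and a log2 ratio of 0.60. Prkra, its paralog, had 3.7 TPM in PB2 and 1.7 in the zygote. These were the largest log2 ratios towards PB2 among the 8 genes, and Tarbp2 exceeded 66.7% and Prkra 74.2% of all genes compared. The ratio of the deposited Prkra values was 2.18, and rounding allows 2.09 to 2.27, while the pseudocount of 1 brings its log2 ratio down to 0.80. With a pseudocount of 0.1 Prkra reached 1.08 and passed 2-fold, beside 24.6% of all genes with that pseudocount. At a threshold of 1.5-fold, Tarbp2 and Prkra were the 2 genes of the machinery higher in PB2, beside 34.2% of all genes, and none was higher in the zygote, beside 18.1%.

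The ratio of Dicer1 to Tarbp2 differed between the libraries in the deposited values. There were 12.2 Dicer1 transcripts per Tarbp2 transcript in PB2 and 28.0 in the zygote, each as a ratio of TPM. Tarbp2 made up 76.3% of the summed TPM of both partners in PB2 and 81.5% in the zygote. Tarbp2 and Prkra have the shortest transcripts of the machinery, 1523 and 1614 nucleotides, and Tarbp2 the highest GC content, 57.5% against a median of 49.1% over all genes compared. With the trend of the log2 ratio on GC content removed, Tarbp2 went from 0.60 to -0.23, a change of sign, whereas Prkra, at a GC content of 47.6%, stayed at 0.71 and Dicer1 at -0.60. With the trend on transcript length removed, Tarbp2 was at 0.56, Prkra at 0.71 and Dicer1 at -0.77.

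The Microprocessor genes were present at unequal levels. Drosha, the nuclease, had 16.1 TPM in PB2 and 15.9 in the zygote, a log2 ratio of 0.02, the nearest to 0 of the 8 genes with the pseudocount of 1. This value lies below the median of all genes, and a scaling that sets the median ratio of abundant genes to 1 moved it to -0.06. Drosha was at -0.40 with the GC trend removed and at -0.33 with the length trend removed, so its sign depends on the setting. Dgcr8, which anchors the hairpin for Drosha, was scarce, at 0.9 TPM in PB2 and 1.7 in the zygote. For Dgcr8 the zygote value was 1.89 times the PB2 value, where rounding allows 1.74 to 2.06, and its log2 ratio was -0.51. In PB2, 91.1% of the 11262 genes of the table exceeded the level of Dgcr8 and 42.4% that of Drosha. Drosha exceeded Dgcr8 by a factor of 17.9 in PB2, with 16.9 to 19 allowed by rounding, and by 9.35 in the zygote, with 9.06 to 9.67 allowed.

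The Dgcr8 transcript is itself known to be cut by the Microprocessor, at hairpins within its own sequence. In the annotation, the hairpin of Mir1306 lies whole within an exon of Dgcr8 on the same strand, at chr16:18284239-18284317 of GRCm38 (minus strand). The mature arms from RefSeq (GRCm38.p6) are shown because they mark this substrate inside a gene of the machinery, with the seed, bases 2 to 8, in capitals.
mmu-miR-1306-5p: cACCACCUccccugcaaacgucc
mmu-miR-1306-3p: aCGUUGGCucugguggugaug
Whether the hairpin was cut in PB2 or in the zygote cannot be read from gene-level TPM. Dgcr8 also shares 10.7% of its exonic bases with Trmt2a on the opposite strand, which had 2.5 TPM in PB2 and 1.8 in the zygote. Which strand setting was used in the counting is not given in the sources used here, so reads of this stretch cannot be told apart, and the Dgcr8 values are uncertain for that reason as well as for their low level. Gm49776, a protein-coding gene on the same strand, shares 4.25% of the Dgcr8 exonic bases and has no TPM value here.

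Among the Argonautes, which hold the small RNA, Ago3 supplied most of the transcripts in both libraries. Ago3 had 32.3 TPM in PB2 and 27.8 in the zygote, a log2 ratio of 0.21, which is that of the median gene. Ago2 had 5.3 TPM in PB2 and 6.7 in the zygote, a log2 ratio of -0.29. Ago4 had 0.5 and 0.7 TPM, and Ago1 had 0.4 and 0.1 TPM. For Ago1, rounding alone allows any ratio between 2.33 and 9, so no order of the libraries by a definite fold was read from it, and for Ago4 it allows 0.60 to 0.846.

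Summed over the family, Argonaute transcripts came to 38.5 TPM in PB2 and 35.3 in the zygote. Ago3 made up 83.9% of this sum in PB2 and 78.8% in the zygote, and Ago2 made up 13.8% and 19.0%. Ago4 held 1.3% in PB2 and 1.98% in the zygote, and Ago1 held 1.04% and 0.283%. Rounding moves the share of Ago3 only between 83.5% and 84.2% in PB2 and between 78.4% and 79.1% in the zygote. Ago3 thus exceeded Ago2 by a factor of 6.09 in PB2 and of 4.15 in the zygote, as a ratio of TPM. The longest Ago3 transcript has 15595 nucleotides and that of Ago2 13800, the longest of the machinery, and the length by which the authors divided each gene is not given in the sources used here. Parts of the family are alike in sequence. The study's methods name default parameters for the alignment only and do not state how reads that match more than 1 Argonaute were counted.

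**Figure D2:**
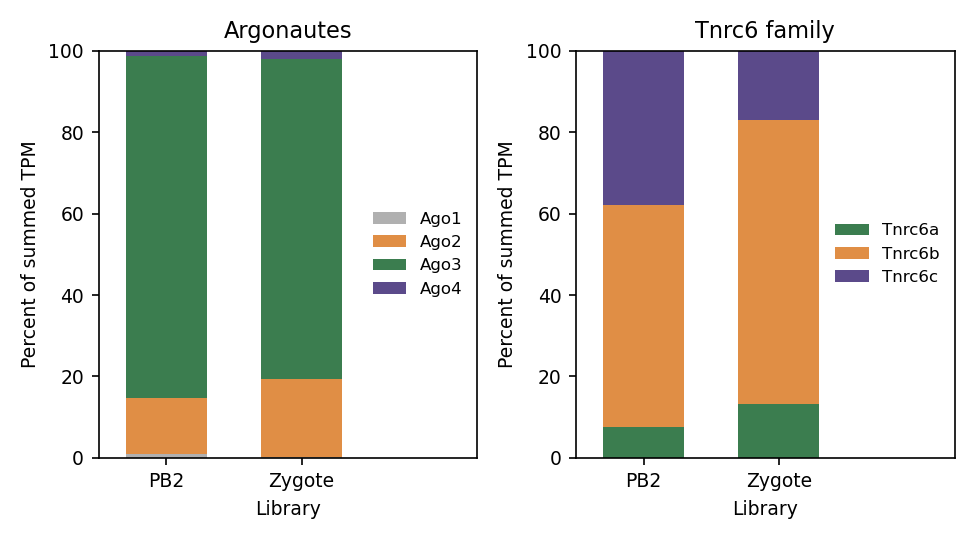
Stacked bars give each gene's percent of the summed TPM of its family in the PB2 library and in the zygote library, for the Argonautes (left) and the GW182 genes Tnrc6a to Tnrc6c (right). Ago3 fills 83.9% of the Argonaute bar in PB2 and 78.8% in the zygote, and Tnrc6c takes 37.8% of its family in PB2 against 16.9% in the zygote.

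Ago3, Ago1 and Ago4 lie side by side on chromosome 4 (minus strand, GRCm38), Ago3 from 126331704 to 126429556, Ago1 from 126435012 to 126468583 and Ago4 from 126489541 to 126533472, with 5455 bases between Ago3 and Ago1 and 20957 between Ago1 and Ago4. The neighbours differed widely in level, with a mean over both libraries of 30.1 TPM for Ago3, 0.25 TPM for Ago1 and 0.6 TPM for Ago4. Their annotated promoters, from RefSeq (GRCm38.p6), are shown because they are the sequences before the starts of these neighbours. Each runs from 250 bases before to 50 bases after a gene's start, 5′ to 3′ on the minus strand, with each CpG (the letters CG, which read the same on both strands) in capitals.
Ago3, chr4:126429493-126429792: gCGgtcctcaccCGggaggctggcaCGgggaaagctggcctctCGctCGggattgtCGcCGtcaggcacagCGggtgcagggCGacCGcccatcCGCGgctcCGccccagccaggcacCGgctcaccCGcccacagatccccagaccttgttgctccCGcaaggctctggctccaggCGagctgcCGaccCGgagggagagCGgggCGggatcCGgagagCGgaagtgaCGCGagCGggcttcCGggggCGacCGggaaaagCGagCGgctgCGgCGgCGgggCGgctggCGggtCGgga
Ago1, chr4:126468534-126468833: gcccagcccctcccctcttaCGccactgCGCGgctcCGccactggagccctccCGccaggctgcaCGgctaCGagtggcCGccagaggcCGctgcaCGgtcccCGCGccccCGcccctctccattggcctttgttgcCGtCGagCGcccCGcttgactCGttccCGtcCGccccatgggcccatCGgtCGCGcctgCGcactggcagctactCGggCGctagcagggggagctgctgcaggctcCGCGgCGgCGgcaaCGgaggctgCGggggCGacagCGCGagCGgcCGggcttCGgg
Ago4, chr4:126533409-126533708: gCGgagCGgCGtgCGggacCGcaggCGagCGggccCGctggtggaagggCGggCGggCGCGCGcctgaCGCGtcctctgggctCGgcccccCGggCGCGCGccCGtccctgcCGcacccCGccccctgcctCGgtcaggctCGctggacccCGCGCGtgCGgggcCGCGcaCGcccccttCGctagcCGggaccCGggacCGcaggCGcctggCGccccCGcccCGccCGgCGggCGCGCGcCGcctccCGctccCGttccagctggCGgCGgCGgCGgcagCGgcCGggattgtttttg
The Ago3 window holds 37 CpG, the Ago1 window 38 and the Ago4 window 54, against a median of 7 over 32851 windows, and their GC contents are 74.7%, 75.7% and 83.3%. Of all windows, 5.58% hold as many CpG as Ago3, 4.95% as many as Ago1 and 0.35% as many as Ago4. The letters TATAAA were found on neither strand of the 3 windows, while 13.6% of all windows hold them on either strand. Ago1 has another annotated start, whose window at chr4:126468582-126468881 overlaps the one shown and holds 31 CpG, a count that 10.6% of all windows reach, and 9 of the 10 machinery genes had a promoter window. The CpG count of the Ago3 window thus lies between those of the Ago1 windows and below that of Ago4, and the TPM table does not tell which start was used.

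Tnrc6a, the GW182 protein that links Argonaute to deadenylation, had 2.7 TPM in PB2 and 3.0 in the zygote, a log2 ratio of -0.11. Its level differed by less than 1.5-fold between the libraries, and in PB2 76.8% of the genes of the table exceeded the level of Tnrc6a. Its paralog Tnrc6b had 19.2 TPM in PB2 and 15.7 in the zygote. Tnrc6c had 13.3 TPM in PB2 and 3.8 in the zygote, a log2 ratio of 1.57. With the GC trend removed this ratio came to 1.00 after rounding, just under the 2-fold threshold before it. Tnrc6a was the scarcest of the family in both libraries, with 7.67% of its summed TPM in PB2 and 13.3% in the zygote. With Tnrc6c, the family summed to 35.2 TPM in PB2 and to 22.5 TPM in the zygote library.

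The order of the levels was the same in both libraries for the 5 most abundant genes, which were Dicer1, Ago3, Drosha, Tarbp2 and Ago2, and for the 2 least abundant, Ago4 and Ago1. The genes in between changed places, with Prkra, Tnrc6a and Dgcr8 in falling order in PB2 and Tnrc6a first in the zygote, where Dgcr8 and Prkra shared 1.7 TPM. Without replicates it cannot be said which neighbours in this order differ beyond their spread. Dicer1 held 66.3% of the summed TPM of the 10 genes in PB2, where the sum was 219.3 TPM, and 76.4% in the zygote, where it was 275.4 TPM. Per Drosha transcript there were 9.04 Dicer1 transcripts in PB2 and 13.2 in the zygote. The 10 genes thus summed to less in PB2, and Dicer1 alone differed by more TPM than the whole sum did.

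**Figure D3:**
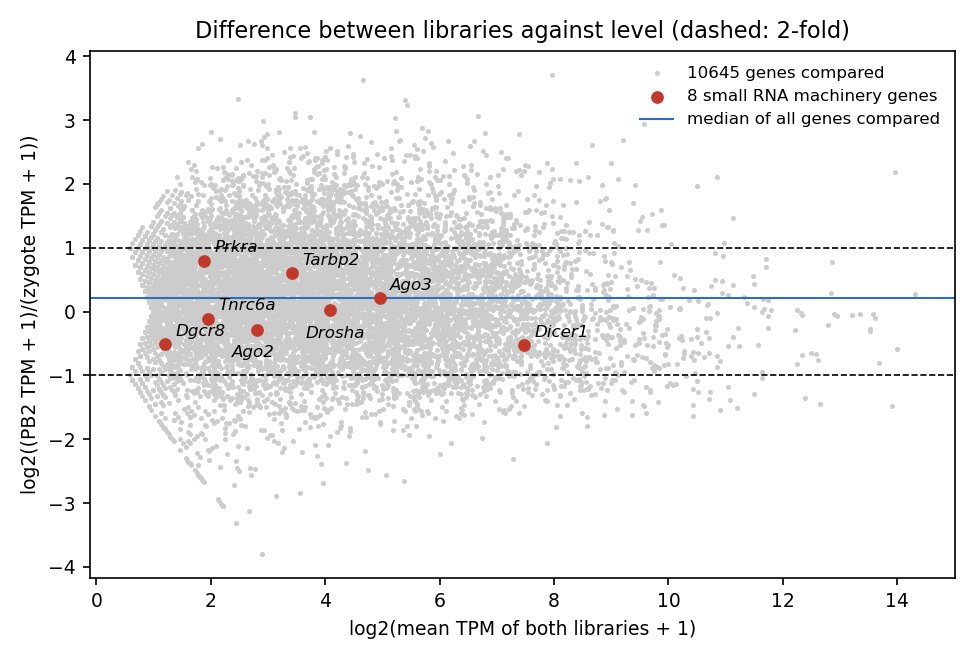
The log2 ratio of PB2 over zygote (vertical axis) against the log2 mean TPM of both libraries plus 1 (horizontal axis) for 10645 genes in grey, with the 8 machinery genes that were compared in red and named. All 8 lie between the dashed lines at 2-fold, from -0.53 for Dicer1 to 0.80 for Prkra. The blue line marks the median of all genes, 0.21, and the median of the 8 genes was -0.05.

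The pattern of a gene over 2 libraries is only a pair of values, and the genes nearest to Dicer1 in log2(TPM + 1) were Knstrn, at 144.4 TPM in PB2 and 209.3 in the zygote, Tex12, at 145.6 and 212.4 TPM, and Tex26, at 149.1 and 208.9 TPM. Their distances from Dicer1 were 0.013, 0.014 and 0.036, and 11 genes lay within a distance of 0.1. Nearest to Ago2 were Samm50, at 5.3 and 6.6 TPM, Thoc5, at 5.2 and 6.7 TPM, and Fem1c, at 5.4 and 6.6 TPM. Of these Ago2 neighbours the distances were 0.019, 0.023 and 0.030, and 27 genes lay within 0.1.

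Genes that act before and after the core machinery were examined through 5 lists written by hand. With the settings of the report, each count past 2-fold is to be read against 18.9% in PB2 and 8.09% in the zygote over all genes. With a pseudocount of 0.1 the share in PB2 was 24.6%. For the other settings used below no share over all genes is given, so their counts are not read as results about a list. The first list holds factors of miRNA processing, export and tailing of precursors. Of its 17 genes compared, 5 passed 2-fold towards PB2 and none towards the zygote, and the median log2 ratio was 0.68. Tut1, a terminal uridylyltransferase best known for the U6 small nuclear RNA, had 70.8 TPM in PB2 and 12.1 in the zygote, a log2 ratio of 2.45. Lin28a, which binds the let-7 precursor and calls in uridylation, had 25.9 and 7.4 TPM, a log2 ratio of 1.68. Ddx17, a helicase of the Microprocessor, had 16.4 and 6.4 TPM, a log2 ratio of 1.23. The other 2, named after their values were seen because they lie under 10 TPM, were Dis3l2, the nuclease for uridylated RNA, at 5.6 and 2.0 TPM, and Srrt, which ties the cap-binding complex to primary transcripts, at 4.6 and 1.7 TPM. The most abundant genes of the list were Hnrnpa1, at 265.2 TPM in PB2 and 352.8 in the zygote, and Tent2, a cytoplasmic poly(A) polymerase, at 198.9 and 105.2 TPM, neither of them past 2-fold. Xpo5, which exports the precursor to Dicer, had 17.4 and 9.7 TPM, a log2 ratio of 0.78, and was named after its value was seen. With the GC trend removed, 3 genes of this list passed 2-fold in PB2. These were Tut1, Lin28a and Tent2, the last at 1.23, while Ddx17 came to 0.98. With ratios centred on the median, 3 did as well, but these were Tut1, Lin28a and Ddx17. With the length trend removed 2 did, Tut1 and Lin28a.

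The second list holds chaperones that load Argonaute, the other GW182 genes and Argonaute partners. Of 24 genes compared, 5 passed 2-fold towards PB2 and none towards the zygote, and the median log2 ratio was 0.22, close to that of all genes. Beside Tnrc6c, these were Hsp90ab1, a cytosolic chaperone, at 599.3 TPM in PB2 and 260.2 in the zygote, Snd1, a Tudor-domain nuclease, at 15.4 and 6.6 TPM, and, named after their values were seen, the helicase Mov10, at 6.4 and 2.5 TPM, and Zswim8, a ubiquitin ligase receptor that marks Argonaute for decay, at 4.7 and 1.4 TPM. Hsp90aa1, the most abundant gene of the list, had 4915.3 and 4822.2 TPM, a log2 ratio of 0.03, and Ahsa1, which activates Hsp90, had 862.5 and 736.6 TPM. With the GC trend removed none of this list passed 2-fold in PB2 and 2 did in the zygote, and with the length trend removed 1 did in PB2 and 3 in the zygote. No share over all genes is given for either setting, so these counts are not read as results about the list.

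The third list holds poly(A)-binding proteins and deadenylases, on which GW182 proteins act. Of 13 genes compared, 3 passed 2-fold towards PB2 and none towards the zygote, and the median log2 ratio was 0.57. Cnot8, a catalytic deadenylase, had 324.3 TPM in PB2 and 110.3 in the zygote, a log2 ratio of 1.55, while its paralog Cnot7 had 331.3 and 329.5 TPM, a log2 ratio of 0.01. Pabpc1l, the poly(A)-binding protein of oocytes and early embryos, had 79.9 and 37.9 TPM, and Pabpc1, named after its value was seen, had 3.0 and 0.5 TPM. Pabpc1 was compared only because of its PB2 value, since it stayed under 1 TPM in the zygote. The log2 ratio of Pabpc1l was 1.06, just past 2-fold, and it came to 0.98 under both scalings, 0.85 centred on the median, 0.40 with the GC trend removed and 0.78 with the length trend removed. Under each of these settings 2 genes of the list passed 2-fold in PB2, and with the length trend removed 1 did in the zygote, Cnot2 at -1.01, also named after its value was seen. Without a share over all genes for these settings, their counts are not read as results about the list.

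Of 16 genes compared that bind or edit double-stranded RNA, 1 was at least 2-fold higher in each library, and the median log2 ratio was 0.26. Adad2, which carries an adenosine deaminase domain, had 18.9 TPM in PB2 and 1.3 in the zygote, a log2 ratio of 3.11. Eif2ak2, the kinase that senses double-stranded RNA and that Prkra is known to activate, was listed at 0 in PB2 and had 1.2 TPM in the zygote, and was named after its value was seen. Eif2ak2 was compared only because of its zygote value, which lies just over the filter of 1 TPM. The most abundant genes of this list were Zfr, at 228.8 and 189.5 TPM, and Stau1, at 125.5 and 93.1 TPM, neither past 2-fold. In the zygote 2 genes of this list passed 2-fold with pseudocounts of 0.1 and 0.01 and with the GC trend removed, and 0 with a filter at 5 TPM. For these settings no share of all genes towards the zygote is given, so the counts are not read as results about the list.

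The piRNA pathway, which works with Piwi proteins and without Dicer, had a median log2 ratio of -0.17 over 20 genes compared, with 2 past 2-fold towards PB2 and 3 towards the zygote. Higher in the zygote were Tdrd12, a Tudor-domain helicase, at 332.4 TPM against 126.9 TPM in PB2, Gtsf1, a partner of Piwi proteins, at 157.9 against 68.6 TPM, and Ddx4, the germ cell helicase Vasa, at 31.0 against 14.0 TPM. Higher in PB2 were Tdrd5, at 27.1 against 12.3 TPM, and Prmt5, an arginine methyltransferase with many substrates outside this pathway, at 23.9 against 6.8 TPM. Asz1, the most abundant gene of the list by the mean of both libraries, had 308.9 TPM in PB2 and 363.9 in the zygote. In PB2, 5 genes of this list passed 2-fold with a pseudocount of 0.1, beside 24.6% of all genes. The count was 6 with a pseudocount of 0.01, but 1 with ratios centred on the median and 1 with the GC trend removed. Tdrd5 was at 0.87 in both of the latter. No share over all genes is given for these last settings, so their counts are not read as results about the list.

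**Figure D4:**
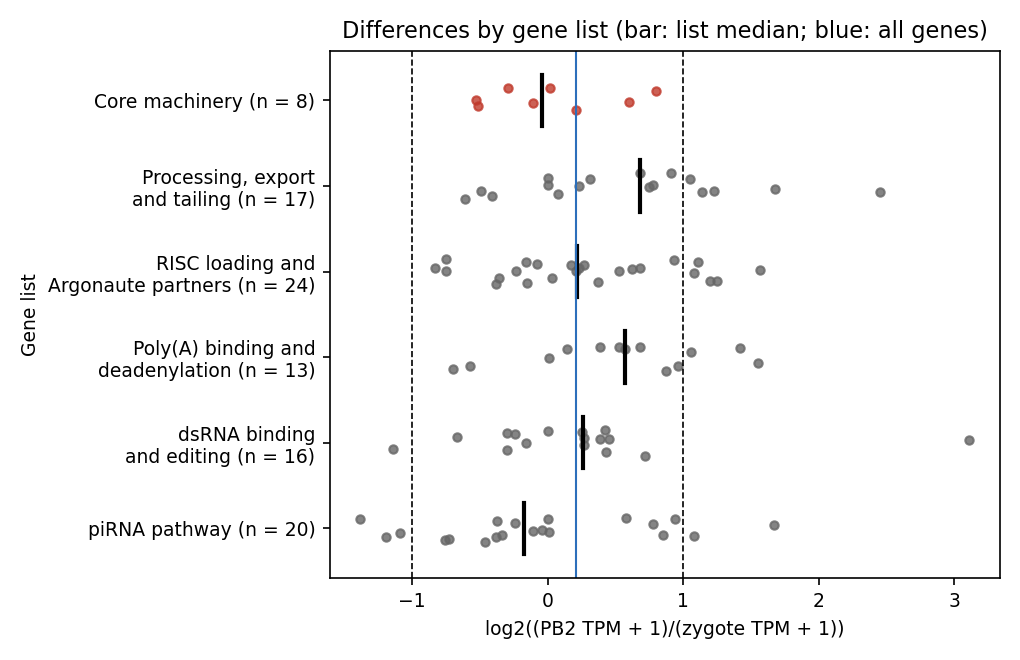
Each point is the log2 ratio of PB2 over zygote for a gene of the core machinery (red) or of 5 further lists (grey), with n the genes compared, a black bar at the list median, the blue line at the median of all genes and dashed lines at 2-fold. The core machinery, with a median of -0.05, has no gene outside the dashed lines, while Tut1 at 2.45 and Adad2 at 3.11 lie farthest right and Tdrd12 at -1.38 farthest left.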

How the data were processed

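RNA of pooled PB2s and pooled zygotes was measured, with 1 library of each. By the study's methods and processing notes, the authors aligned reads with HISAT2 2.0.4, counted them by gene with HTSeq 0.6.1p1 (Ensembl release 85) and normalized with DESeq2 1.18.1. The notes name both GRCm38 and OryCun2.0, a rabbit assembly, while the identifiers are mouse. The authors deposited TPM values, rounded to 1 decimal, and how TPM was made from counts is not given in the sources used here. Depth is unknown, so no interval for counting error is given, and rounding ranges (0.05 TPM either way) cover rounding only. Of the value columns, 0 were left without a sample.

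The log2 ratio used a pseudocount of 1 and genes with at least 1 TPM in either library, and a gene was counted once 2-fold or more separated the libraries. No test was run. Genes and lists were chosen with earlier results of these data known. Every gene of the machinery is named, and of each list those past 2-fold with at least 10 TPM and the 2 of highest mean, together with the 3 genes nearest to Dicer1 and to Ago2. Positions, GC content and length are from GENCODE M21 (GRCm38), using the longest protein-coding transcript, with 11221 identifiers matched. Trends were fitted by loess (span 0.3) and subtracted. The subtraction was checked on simulated data with a GC trend only, over genes with at least 10 TPM in the zygote. It was not checked for the length trend or for scarcer genes. Alternatives were other pseudocounts, folds, filters and scalings, centred ratios, and ratios without the GC or the length trend. Python 3.11.15, numpy 2.4.6, pandas 2.3.3, statsmodels 0.14.6 and matplotlib 3.10.9 were used.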

Additional observations from a re-analysis of the deposited data

How the results depend on the processing

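No paired analysis was possible because PB2 and the zygote have 1 library each. The count of machinery genes at least 2-fold higher in PB2 was 0 of 8 with the settings of the report, beside 18.9% of all genes compared. It was 1 (Prkra) with a pseudocount of 0.1, beside 24.6%, and 1 (Prkra) with 0.01. At a threshold of 1.5-fold it was 2 (Tarbp2 and Prkra), beside 34.2%. It stayed at 0 with a 4-fold threshold, no filter, a filter at 5 TPM, both scalings, centring, and either trend (GC or length) removed. The count higher in the zygote was 0 under every alternative tried, beside 18.1% of all genes at 1.5-fold. Where no share over all genes is given, the counts are not read as results about the machinery. The median log2 ratio of the machinery ran from -0.36 with the length trend removed to 0.02 with a filter at 5 TPM, which leaves 5 of the genes. Depth is unknown, so the counting error of the genes under 2 TPM in a library, Dgcr8, Prkra, Ago1 and Ago4, cannot be given.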
